A study of Homo sapiens with 3 samples.

Results

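The G protein gene module described here holds the alpha, beta and gamma subunits of heterotrimeric G proteins and their RGS regulators. Members were the protein-coding genes whose symbols begin with GNA, GNB, GNG or RGS in the pattern of these families, with GNAS left out, and no measured value entered the choice. There were 57 such genes among 78932 listed genes, of which 20116 were protein-coding: 15 alpha, 5 beta and 14 gamma genes, 21 RGS genes and the 2 genes of proteins that anchor RGS proteins to the membrane, RGS7BP and RGS9BP. RNA came from 3 untreated samples of iGluta cells (iCell GlutaNeurons), a commercial wild-type line of human glutamatergic neurons made from induced pluripotent stem cells, after 3 weeks in culture. All 3 samples belong to a single group, and nothing in the labels says that they were separate cultures, so errors measure the spread between samples, which may be technical.

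A heterotrimeric G protein carries the signal of an activated receptor: the receptor makes the alpha subunit exchange GDP for GTP, and alpha and the beta-gamma pair then act on effectors separately. Alpha subunits fall into the Gi/o class, which lowers cyclic AMP and is the main partner of inhibitory receptors in neurons, the Gs-like class, which raises it, the Gq class, which activates phospholipase C beta, and the G12 class, which acts on the cytoskeleton. RGS proteins speed up GTP hydrolysis by alpha subunits and so end the signal. In neurons Gi/o signalling through beta-gamma opens inward-rectifier potassium channels and closes calcium channels.

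Summed over all genes, replicates 1, 2 and 3 had 41079348, 60092991 and 34732725 estimated counts. Levels are in TPM, a length-corrected share of all transcripts that can be compared between genes, and are given as mean ± SD with n = 3 unless libraries are named. All 8 pan-neuronal marker genes were above 1 TPM. Of 5 glutamatergic markers 4 were above, led by CAMKV (132 ± 17.5 TPM), with NEUROD2 below (0.02 ± 0.02 TPM). All 5 GABAergic markers were above too, led by GAD1 (185 ± 60.0 TPM), so the label of glutamatergic neurons did not cover all the transcripts. The GABAergic list summed to more than the glutamatergic list in replicates 1 and 2 (610.3 and 654 against 325 and 342 TPM). In replicate 3 it summed to less (309.8 against 363 TPM). Markers of glia, vessel cells and blood summed to at most 5.63 TPM per list and library, although ACTA2 of smooth muscle was at 2.69 ± 0.272 TPM and the astrocyte list had 3 of 5 genes undecided, led by SLC1A3 (1.11 ± 0.864 TPM). Replicate 3 stood apart: mitochondrial genes took 4.25, 4.01 and 10.6% of TPM in replicates 1, 2 and 3, the progenitor list summed to 162, 165 and 356 TPM, and the GABAergic list, led by GAD1, to 610.3, 654 and 309.8 TPM. The progenitor sum was nearly all VIM (123, 120 and 267 TPM) and NES (38.1, 43.9 and 88.5 TPM). SOX2 (0.74, 1.27 and 0.57 TPM) was undecided and lowest in replicate 3, and HES1, MKI67 and TOP2A were below the bar. Of these HES1 (0.03, 0.1 and 0.38 TPM) and MKI67 (0, 0.06 and 0.1 TPM) were highest in replicate 3. TOP2A (0.16, 0.2 and 0.01 TPM) was lowest there. The part of these lists in the member values was not tested. The samples are bulk RNA, so fewer cells of a type and less RNA per cell cannot be told apart.

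Most of the module was expressed. Each gene was compared with a bar of 1 TPM (limma on log2(TPM + 0.1), adjusted over all 38992 genes with any signal). Of 57 members, 51 had a value above 0 in at least 1 library and could be tested. Of these, 39 were above 1 TPM, 7 were below and 5 were undecided, and the other 6 were listed at 0 in every library. Among all protein-coding genes tested, 71.2% were above the bar and 19.9% below (40.6% and 45.1% of all genes tested), so the share of members above the bar was near the background. The median member tested was at 22.7 TPM, against 12.5 TPM for 17804 protein-coding genes. Without replicate 3 the count above was 39 as well, and without replicate 1 or 2 it was 40, with RGS10 added.

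**Figure D1:**
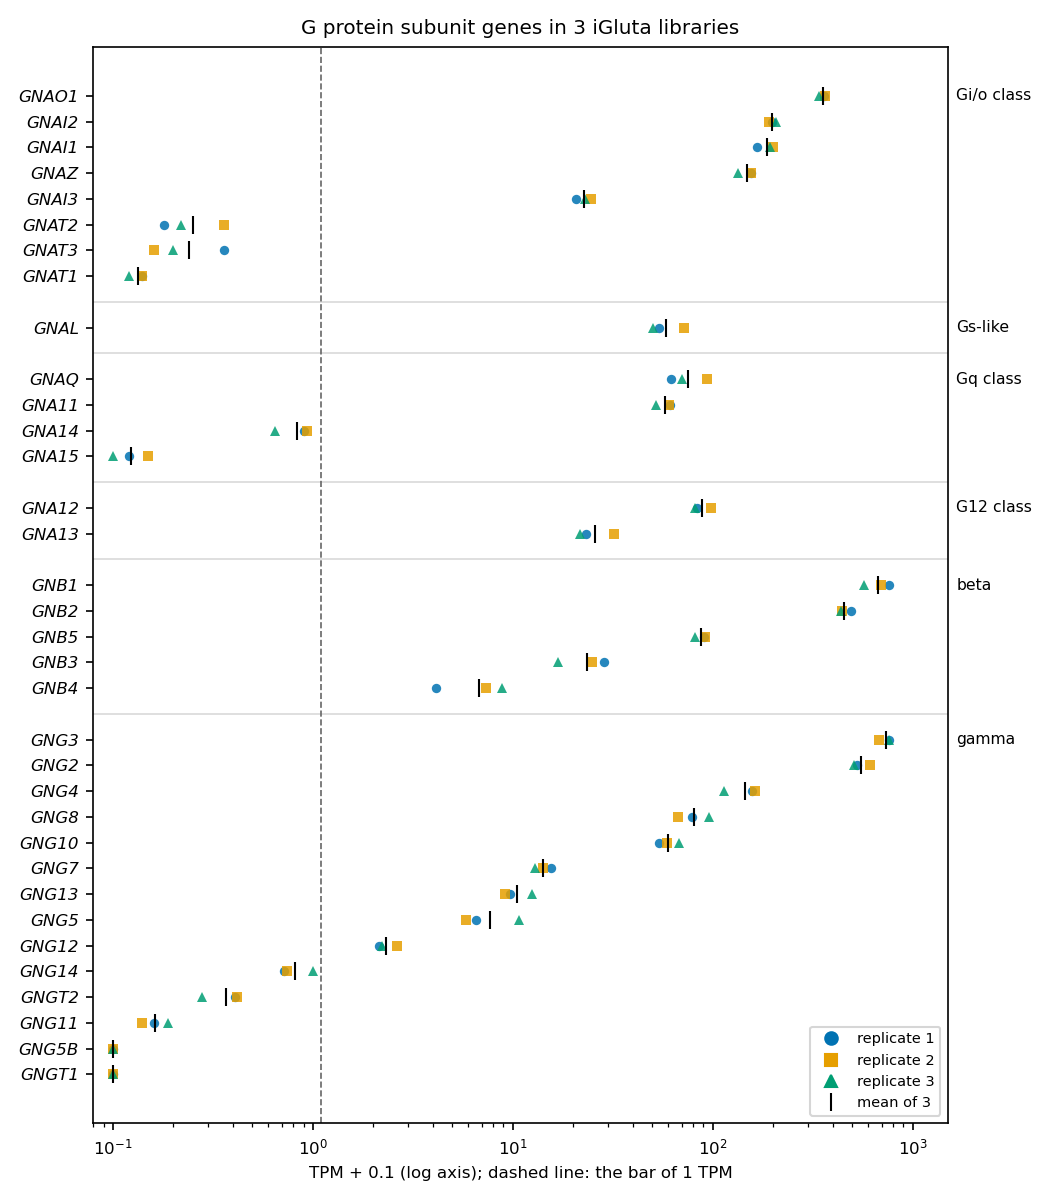
TPM + 0.1 on a log axis for the 34 subunit genes in each library (points) with the mean of 3 (bar), grouped by family and ordered by mean. GNG3, GNB1 and GNG2 have the highest means, and every family has at least 1 gene right of the 1 TPM line, while the transducin and gustducin genes GNAT1, GNAT2 and GNAT3 lie left of it.

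Among the alpha genes the Gi/o class took most of the transcripts. Its 8 genes summed to 903, 938 and 896 TPM in replicates 1, 2 and 3, which was 75.0 ± 2.22% of the summed TPM of the 15 alpha genes. The Gq class followed with 124, 155 and 122 TPM (11.0 ± 0.882%), the G12 class with 107, 130.4 and 104 TPM (9.3 ± 0.668%) and GNAL, the only Gs-like gene of the module, with 53.9, 72.01 and 50.2 TPM (4.79 ± 0.676%). These shares leave out GNAS, the ubiquitous Gs gene, which was at 6904, 6635 and 5854 TPM and so above all Gi/o genes together in every library.

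Differences between families were computed within each library as log2 ratios of summed TPM, and an exact permutation test that flips signs (2-sided) was run on each. With 3 libraries its smallest possible p is 0.25 (0.279 after adjustment over the 19 ratios), so no ratio could pass a threshold of 0.05. A ratio is therefore called different from 0 when all 3 libraries have the same sign and the mean is over 2 SD from 0, which 14 of the 19 were. This rule describes the values and is not a test, and the share of other gene pairs that would pass it was not computed. For these 19 ratios on TPM the exact p was 0.25 unless another p is given. Other ratios between genes, and ratios on CPM, carry no exact p here. The Gi/o class exceeded the Gq class by 2.78 ± 0.16 on the log2 scale, the G12 class by 3.01 ± 0.14 and GNAL by 3.97 ± 0.24, each positive in 3 of 3 libraries. On CPM, counts scaled to the library total and not divided by gene length, these became 1.74, 2.44 and 3.02. The Gq class exceeded the G12 class by 0.24 ± 0.02, with 0.22, 0.25 and 0.24 in the 3 libraries, and by 0.70 on CPM.

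Within the Gi/o class GNAO1 (chr16:56191489-56357444), the alpha subunit of Go and the typical G protein of brain, was highest at 361, 367 and 339.5 TPM. The 3 libraries lay within 1.08-fold of each other. GNAI2 and GNAI1, which inhibit adenylyl cyclase, followed at 199, 192 and 207 TPM and at 166, 199.8 and 193 TPM. Their order was not fixed: the log2 ratio of GNAI1 over GNAI2 was -0.10 ± 0.16 and changed sign between libraries (exact permutation p = 0.5). GNAI3, the other inhibitory gene of this group, was lower at 20.7, 24.5 and 22.8 TPM. GNAO1 alone was close to GNAI1, GNAI2 and GNAI3 together (408 ± 19.7 TPM), with a log2 ratio of -0.20 ± 0.11 that was within 2 SD of 0. It was over 2 SD from 0 without replicate 1 (-0.25) and without replicate 3 (-0.14), and -0.0072 on CPM.

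GNAZ, whose Gz protein resists pertussis toxin and is found mainly in neurons and platelets, was at 156, 155 and 134 TPM. Its log2 ratio over GNAO1 was -1.26 ± 0.07, negative in each library, and it was not separated from GNAI1 (GNAI1 over GNAZ 0.33 ± 0.22). On CPM GNAZ (245, 227 and 213) was above GNAI1 (164, 181 and 198) in every library. The mean log2 ratio of GNAI1 over GNAZ was then -0.34. GNAI2 was at 211, 188 and 221 CPM. GNAZ lies inside the span of RSPH14, which is on the opposite strand and was at 6.63 TPM. The remaining Gi/o genes are those of sensory cells. GNAT1 of rods was at 0.0333 ± 0.0115 TPM, GNAT2 of cones at 0.153 ± 0.0945 and GNAT3, the gustducin of taste cells, at 0.14 ± 0.106, all below the bar (largest adjusted p 0.00104, limma). Their counts ran from 1 to 10 per library.

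GNAL, which encodes Golf and couples dopamine and adenosine receptors to adenylyl cyclase in the striatum, was above the bar at 58.7 ± 11.7 TPM (adjusted p = 1.13e-09, limma). It was highest in replicate 2. CHMP1B (34.0 TPM on average) lies within the span of GNAL on the same strand and MPPE1 (42.1 TPM) at its end on the opposite strand, so some of its reads may be theirs.

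In the Gq class GNAQ and GNA11, the broadly used activators of phospholipase C beta, were at 61.9, 93.8 and 70.1 TPM and at 61.4, 60.4 and 51.8 TPM. The log2 ratio of GNAQ over GNA11 was 0.01, 0.63 and 0.44 in the 3 libraries, and its mean of 0.36 ± 0.32 was within 2 SD of 0. It was over 2 SD from 0 without replicate 1 (0.53) and on CPM (1.06). GNA14, which has a narrow tissue range, was undecided at 0.81, 0.84 and 0.55 TPM. GNA15, a gene of blood cells, was below the bar with 1, 3 and 0 counts. In the G12 class GNA12 (83.6, 98.2 and 82.0 TPM) exceeded GNA13 (23.2, 32.2 and 21.7 TPM), with a log2 ratio of 1.79 ± 0.16, and the libraries of the 2 genes did not overlap.

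All 5 beta genes were above the bar. GNB1 (chr1:1785286-1891087) was at 761, 693 and 570.5 TPM and GNB2 (chr7:100673740-100679169) at 489.6, 442 and 437 TPM, which were 53.9 ± 2.34 and 36.7 ± 2.23% of the summed beta TPM. The log2 ratio of GNB1 over GNB2 was 0.56 ± 0.15 in TPM and 1.73 in CPM. GNB5, the divergent beta subunit that binds R7 RGS proteins through their gamma-like domain, followed at 90.5, 91.2 and 81.2 TPM. GNB3, known from cone photoreceptors and other tissues, was at 28.5, 24.9 and 16.7 TPM, lowest in replicate 3. GNB4 ran the other way at 4.05, 7.22 and 8.74 TPM. GNB3 was above GNB4 in every library in TPM, with a log2 ratio that varied widely (1.83 ± 0.93, within 2 SD of 0), and the mean ratio on CPM was -0.080.

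The photoreceptor marker list was checked beside GNB3 and the transducins. CRX had 0, 0 and 1 counts. PDE6B (6.71 ± 1.24 TPM), NRL (3.63 ± 0.406) and GUCA1A (2.79 ± 0.304) were above the bar, and the list of 6 summed to 12 to 14.9 TPM. Their part in the GNB3 value was not tested.

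Of 14 gamma genes 9 were above the bar, and a few of them held nearly all transcripts. GNG3, a gamma subunit largely restricted to neurons, was at 759, 679 and 765 TPM and ranked 161st of all protein-coding genes, GNG2 was at 527, 613 and 509 TPM and GNG4 at 157, 163 and 115 TPM. Their mean shares of the summed gamma TPM were 45.8, 34.3 and 9.01%. The order of GNG3 and GNG2 depended on the unit. GNG3 over GNG2 was 0.42 ± 0.24 on the log2 scale in TPM, positive in 3 of 3 libraries but within 2 SD of 0 (over it without replicate 2, 0.56), and -1.61 ± 0.23 in CPM, where GNG3 had 11372, 13669 and 9663 counts against 30076, 49426 and 28726 for GNG2. GNG3 (chr11:62706446-62709201) lies inside the span of BSCL2 (chr11:62690262-62709537), on the opposite strand and itself at 555 TPM, and whether the counting used strand was not given in the sources used here. GNG4 over GNG2 was -1.94 ± 0.20, negative in each library. On CPM GNG4 (392, 365 and 292) was above GNG3 (277, 227 and 278) in every library.

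The next gamma genes are linked to sensory and striatal neurons or are broadly expressed. GNG8, first known from olfactory and vomeronasal neurons, was at 78.6, 67.2 and 96.1 TPM. That level rests on only 434, 495 and 437 counts, since a short transcript turns few reads into a high TPM, and while its TPM exceeded that of GNG10 by 0.42 ± 0.19 on the log2 scale, its CPM (10.6, 8.24 and 12.6) was below that of GNG10 (29.2, 29.5 and 37.0), with a mean log2 ratio of -1.61. GNG10, a broadly expressed gamma gene, was at 53.7, 58.8 and 67.7 TPM and shares its exons with the readthrough gene DNAJC25-GNG10 (10.3 TPM). GNG7, the partner of Golf in the striatum, was at 14.1 ± 1.3 TPM, and its libraries did not overlap those of GNAL. GNG13 of taste and retinal cells was at 10.4 ± 1.78 TPM, GNG5 at 6.47, 5.73 and 10.7 TPM and GNG12 at 2.24 ± 0.263 TPM.

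The gamma genes GNGT1, GNGT2 and GNG11, whose proteins carry a farnesyl lipid, were low or at 0. GNGT1 of rods was listed at 0 in every library, GNGT2 of cones was at 0.27 ± 0.0781 TPM and GNG11, known from vessel and blood cells, at 0.0633 ± 0.0252 TPM, the last 2 below the bar. A count of 0 allows up to 3 counts, or 0.073, 0.0499 and 0.0864 CPM in replicates 1, 2 and 3, for counting error only. GNG5B was listed at 0 too, and GNG14 was undecided at 0.72 ± 0.156 TPM on 3.31 to 4.52 counts. The 5 beta genes summed to 1373, 1258 and 1114 TPM and the 14 gamma genes to 1610.1, 1613 and 1592 TPM. Over the 12 gamma genes of the ratio, which leaves out GNG14 and GNG5B, beta over gamma was -0.37 ± 0.14 on the log2 scale. It was within 2 SD of 0 without replicate 2 (-0.37) and on CPM (-0.080).

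**Figure D2:**
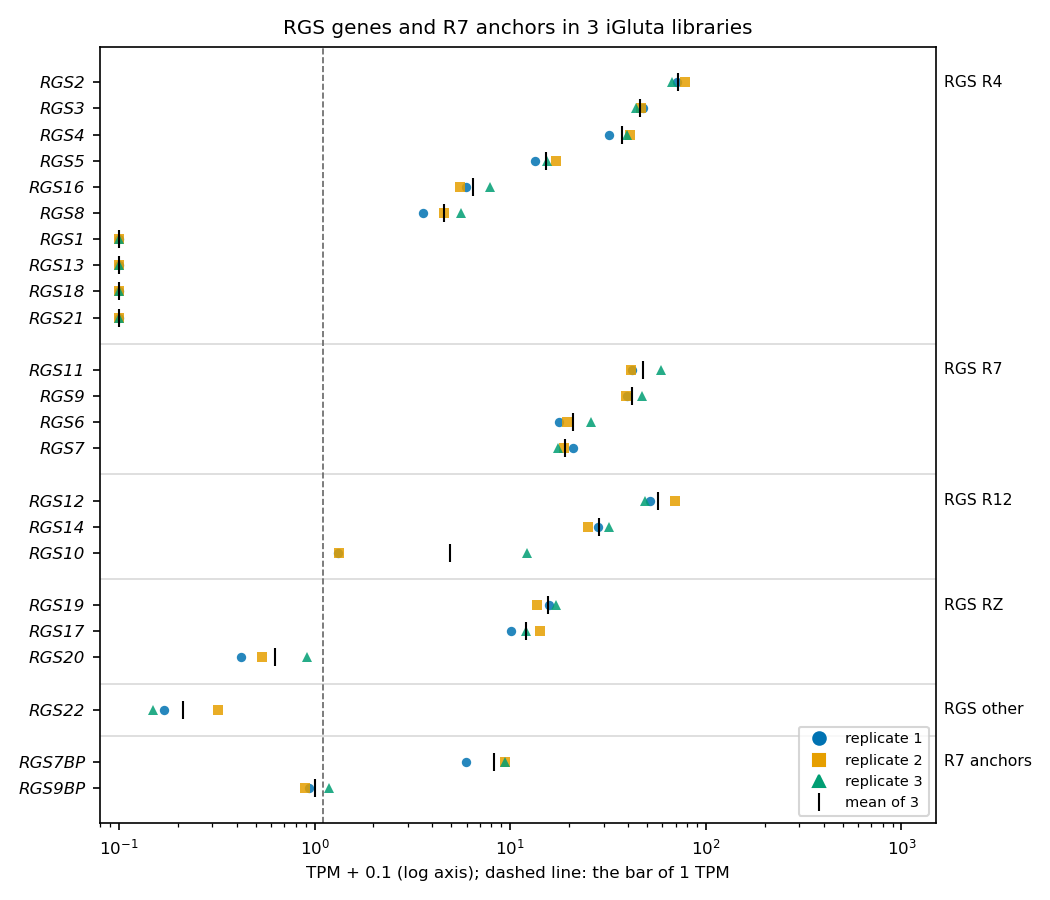
TPM + 0.1 on a log axis for the 21 RGS genes and the 2 anchors of R7 proteins in each library (points) with the mean of 3 (bar), by subfamily. RGS2, RGS12 and RGS11 have the highest means, RGS1, RGS13, RGS18 and RGS21 sit at 0 in all libraries, and RGS10 stands apart in replicate 3 (12.1 TPM) from replicates 1 and 2 (1.22 and 1.23 TPM).

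RGS genes summed to less than the alpha genes (429 ± 25.3 and 1219 ± 66.9 TPM). The 21 genes summed to 401, 436 and 450.3 TPM, with 14 above the bar, 1 below, 2 undecided and 4 listed at 0. By subfamily the R4 genes summed to 182 ± 9.75 TPM, the R7 genes to 129 ± 17.1, the R12 genes to 89.8 ± 7.68 and the RZ genes to 28.0 ± 1.87. R4 exceeded R7 by 0.50 ± 0.22 on the log2 scale, and was within 2 SD of 0 without replicate 1 (0.48) and on CPM (0.11 ± 0.14). RZ over R12 was -1.68 ± 0.07 on TPM and -0.44 with CPM.

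The R4 subfamily holds mostly small RGS proteins that act on Gi/o and Gq. RGS2, which is selective for Gq, was at 71.4, 78.3 and 67.3 TPM. RGS3 was at 46.1 ± 2.13 TPM. RGS4, a brain RGS gene, was at 31.9, 40.9 and 39.3 TPM. The log2 ratio of RGS4 over RGS2 was -0.96 ± 0.19, negative in 3 of 3 libraries, but -0.15 ± 0.35 with CPM. RGS5, best known as a marker of pericytes, was at 13.3, 17.0 and 15.3 TPM. Beside it, the pericyte genes PDGFRB and CSPG4 were at 0.02 ± 0.0265 and 0.0367 ± 0.0115 TPM, with at most 9 counts in a library. ACTA2 (2.69 ± 0.272 TPM) and NOTCH3 (1.77 ± 0.162 TPM) of the same list were above the bar, the other 4 of its 6 genes were below, and the list summed to 4.47 to 5.63 TPM. Their part in the RGS5 value was not tested. RGS16 was at 6.38 ± 1.25 TPM and RGS8, known from Purkinje cells, at 3.47, 4.49 and 5.49 TPM.

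The other R4 genes, RGS1, RGS13 and RGS18 of blood and immune cells and RGS21 of taste cells, had 0 counts in every library. These 4 genes and RGS2 lie together on chromosome 1, in the order RGS18, RGS21, RGS1, RGS13 and RGS2, with 56.1 to 208 kb between neighbours. RGS2 had 1822, 2667 and 1445 counts, so an expressed gene lies at the end of a row of 4 genes listed at 0. Of these 4 only RGS13 is next to RGS2 in this order, 149 kb away. The 250 bases before each start in the RefSeq promoter table (GRCh38.p14, gene strand, 1 window for each gene) are shown because their CG content differs between RGS2 and the other 4. Capitals mark each CG dinucleotide.
RGS2, chr1:192808789-192809038, plus strand: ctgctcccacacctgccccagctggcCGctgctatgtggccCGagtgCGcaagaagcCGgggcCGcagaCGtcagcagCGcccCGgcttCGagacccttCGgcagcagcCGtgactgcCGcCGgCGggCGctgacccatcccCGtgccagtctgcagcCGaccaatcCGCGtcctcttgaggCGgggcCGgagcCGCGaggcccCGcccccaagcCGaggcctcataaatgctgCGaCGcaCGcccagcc
RGS1, chr1:192575523-192575772, plus strand: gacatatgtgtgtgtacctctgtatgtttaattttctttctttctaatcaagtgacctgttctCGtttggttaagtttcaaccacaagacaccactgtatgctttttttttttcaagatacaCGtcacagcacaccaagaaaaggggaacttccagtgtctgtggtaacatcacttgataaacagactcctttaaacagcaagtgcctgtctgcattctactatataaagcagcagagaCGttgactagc
RGS13, chr1:192635897-192636146, plus strand: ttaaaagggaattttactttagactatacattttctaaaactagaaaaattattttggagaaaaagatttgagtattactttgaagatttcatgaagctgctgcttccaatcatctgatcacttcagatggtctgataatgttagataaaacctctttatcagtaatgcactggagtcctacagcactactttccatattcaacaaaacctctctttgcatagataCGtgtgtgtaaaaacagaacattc
RGS18, chr1:192158212-192158461, plus strand: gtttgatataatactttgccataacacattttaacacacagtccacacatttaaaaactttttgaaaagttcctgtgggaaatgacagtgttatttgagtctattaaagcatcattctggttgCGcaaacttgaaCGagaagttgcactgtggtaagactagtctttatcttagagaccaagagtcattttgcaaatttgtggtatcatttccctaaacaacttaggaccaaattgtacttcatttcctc
RGS21, chr1:192316742-192316991, plus strand: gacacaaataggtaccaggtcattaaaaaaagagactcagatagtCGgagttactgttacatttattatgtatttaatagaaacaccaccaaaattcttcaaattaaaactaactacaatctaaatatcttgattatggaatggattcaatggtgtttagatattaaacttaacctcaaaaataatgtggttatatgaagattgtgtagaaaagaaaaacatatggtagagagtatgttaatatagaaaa

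The RGS2 window held 28 CG dinucleotides and 72.8% G and C. The windows of RGS1, RGS13, RGS18 and RGS21 held 3, 1, 2 and 1 CG dinucleotides and 27.2 to 39.2% G and C. The RGS2 window also held a GC box, searched as GGGCGG or CCGCCC, and none of the other 4 did. That motif contains a CG itself, so these measures overlap.

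The R7 subfamily (RGS6, RGS7, RGS9 and RGS11) acts on Gi/o in neurons as a complex with GNB5, and all 4 genes were above the bar. RGS11 was at 42.0, 41.6 and 58.7 TPM and RGS9, known from striatum and photoreceptors, at 39.6, 39.2 and 47.2 TPM. RGS6 was at 17.7, 19.5 and 25.7 TPM and RGS7 at 20.8, 18.7 and 17.4 TPM. RGS11, RGS9 and RGS6 were highest in TPM in replicate 3 and RGS7 was lowest there. The order of RGS9 and RGS6 depended on the unit. RGS6 was above RGS9 on CPM in every library (37.9, 38.3 and 55.4 against 30.9, 30.4 and 35.2). The log2 ratio of RGS7 over RGS6 was -0.13 ± 0.40 and did not keep a sign (exact permutation p = 0.75), and it was 0.087 without replicate 3, while on CPM it was -1.013 and over 2 SD from 0. RGS11 overlaps the end of FAM234A (62.4 TPM, opposite strand).

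GNB5 transcripts did not exceed those of the R7 genes together. GNB5 over summed R7 was -0.56 ± 0.28 on the log2 scale (-0.41, -0.38 and -0.88), lowest in replicate 3. It was within 2 SD of 0 without replicate 1 (-0.63), without replicate 2 (-0.64) and on CPM (-0.25). RGS7BP, which anchors the complex in the membrane of neurons, was at 5.86, 9.32 and 9.27 TPM, and RGS9BP, the anchor in photoreceptors, was undecided at 0.907 ± 0.161 TPM.

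In the R12 subfamily RGS12, a large protein with further signalling domains, was at 51.7, 69.5 and 48.7 TPM and RGS14, known from hippocampal area CA2, at 28.2, 24.9 and 31.9 TPM. RGS10 varied most of the members with a mean of at least 1 TPM. It had 18, 27 and 166 counts and 1.22, 1.23 and 12.1 TPM, and was undecided against the bar (adjusted p = 0.0669, limma). It was above the bar without replicate 1 (adjusted p = 0.00959, limma) or replicate 2 (0.0481), and over all alternatives its adjusted p ran from 0.00791 (edgeR without a filter) to 0.369 (limma without replicate 3). RGS10 is abundant in microglia and immune cells as well as in some neurons. Beside its higher value in replicate 3, the 6 microglial and blood genes summed to 1.44, 1.25 and 0.49 TPM, lowest in replicate 3. AIF1 was at 0 and CSF1R was highest of them at 0.68 ± 0.322 TPM. Of the progenitor list VIM, NES, HES1 and MKI67 were highest in TPM in replicate 3, the last 2 on at most 10 counts. SOX2 and TOP2A were lowest there. The part of either list in the RGS10 value was not tested. In the RZ subfamily, which acts on Gz and Gi, RGS19 was at 15.4 ± 1.66 TPM and RGS17 at 12 ± 2.01 TPM, in an order that changed between libraries. On CPM RGS17 (41.5, 53.9 and 49.9) was above RGS19 (10.1, 8.49 and 11.7) in every library, with a mean log2 ratio of RGS19 over RGS17 of -2.26. RGS20 was undecided at 0.32, 0.44 and 0.82 TPM (adjusted p = 0.0743, limma), below RGS17 by a factor of 20.2 (log2 ratio of RGS17 over RGS20 4.34 ± 0.55). RGS20 was called below the bar by limma without replicate 3 (adjusted p = 0.0379), with a pseudocount of 1 (0.0285) and without trend (0.0388), and by edgeR without a filter (0.000917), while its adjusted p reached 0.286 without replicate 1. RGS22, a testis gene, was below the bar at 0.113 ± 0.0929 TPM.

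**Figure D3:**
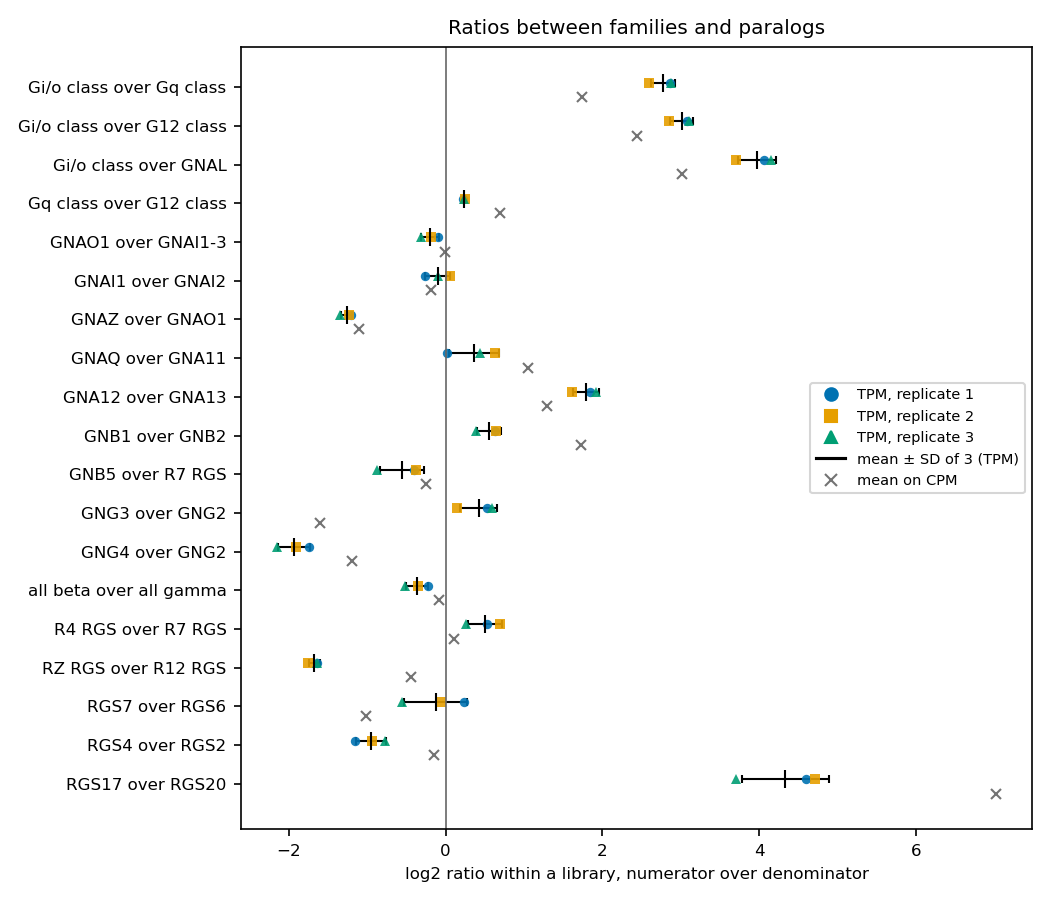
Log2 ratios within each library (points), their mean and SD over 3 libraries (bars) on TPM, and the mean on CPM (crosses), for the 19 ratios between families and paralogs. The ratios of the Gi/o class to Gq, G12 and GNAL lie far right of 0 on both scales, whereas GNG3 over GNG2 has its cross at -1.61, on the other side of 0.

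The spread between libraries was near that of other genes. Of the 40 members with a mean of at least 1 TPM, 2 had more than a 2-fold difference between the highest and the lowest library, against 7.09% of 13406 protein-coding genes. They were RGS10 (9.89-fold) and GNB4 (2.16-fold), both highest in replicate 3. The median member differed by 1.28-fold and the median protein-coding gene by 1.27-fold. Of the 40 members 8 were highest in replicate 1, 17 in replicate 2 and 15 in replicate 3. Without replicate 3 no member differed more than 2-fold.

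Within 250 kb of each other on a chromosome lay 13 pairs of adjacent members. In 6 of them, each of paralogs of the same family, the higher gene was above the bar and its neighbour was not. The same share was not computed for other adjacent genes or for members that are not adjacent, and 39 of all 57 members were above the bar. GNAI2 (199 ± 7.72 TPM) lies 29.4 kb from GNAT1 (0.0333 ± 0.0115), GNAI3 (22.7 ± 1.9) lies 2.9 kb from GNAT2 (0.153 ± 0.0945) and GNAI1 (186 ± 17.9) lies 232 kb from GNAT3 (0.14 ± 0.106). GNA11 (57.8 ± 5.26 TPM) lies 12034 bases from GNA15 (0.0233 ± 0.0252) and GNAQ (75.3 ± 16.6) lies 67.8 kb from GNA14 (0.733 ± 0.159). RGS2 beside RGS13 is the sixth. In 3 pairs both genes were above the bar: RGS4 with RGS5, RGS16 with RGS8, and RGS9 with GNA13. In 4 pairs neither was, among them GNG11 with GNGT1.

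**Figure D4:**
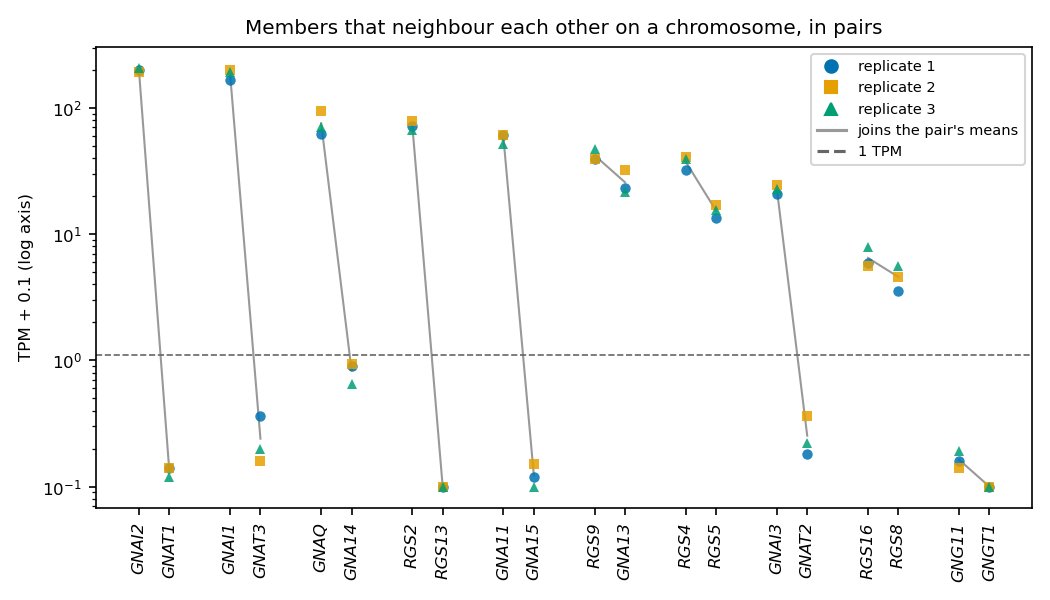
TPM + 0.1 on a log axis in each library for 10 pairs of members that are adjacent within 250 kb, the gene with the higher mean on the left of each pair and a line joining the means. In 6 pairs the line crosses the 1 TPM mark, steepest for GNAI2 and GNAT1, and the 3 pairs with no signal in either gene are not drawn.

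The promoter windows of the module were compared with the level. RefSeq windows were found for 49 of 57 members, 18 of them with several start sites, for which the window with the most CG was taken. Of 35 members above the bar 30 had at least 10 CG dinucleotides in the 250 bases before the start, with a median of 25. Of 10 members below the bar or listed at 0, 1 had as many (GNAT2, with 19 in one window and 2 in its other), with a median of 2. Genes outside the module differed in the same direction: 91.4% of 10263 protein-coding genes above the bar and 31.8% of 4034 below it or at 0 had at least 10. Among members with a single window the medians were 23 and 2, against 22 and 4 for protein-coding genes with a single window. A GC box in any window of the gene was found in 27 of the 35 and in 1 of the 10. Among protein-coding genes it was found in 75.7% of those above the bar and 32.2% of those below it or at 0. TATAAA on either strand was found in 3 of the 35 and 4 of the 10, against 7.83 and 21.4% of these protein-coding genes. The shares of members above the bar were thus near the background for both motifs. Counted by window and not by gene, the motifs were in 42.6 and 10.7% of all 35116 windows of this length.

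The members that were above the bar with fewer than 10 CG dinucleotides were GNG3, GNG2 and RGS4 with 6 each, GNG13 with 7 and RGS8 with 8. GNG3 and GNG2 were nonetheless the highest gamma genes in TPM. On CPM GNG2 was highest, and GNG4, with 20 CG dinucleotides, was above GNG3 in every library. The windows of GNB1, the highest beta gene, and GNG3, the gamma gene of the highest mean TPM, are shown for this contrast, again with CG in capitals.
GNB1, chr1:1891088-1891337, minus strand: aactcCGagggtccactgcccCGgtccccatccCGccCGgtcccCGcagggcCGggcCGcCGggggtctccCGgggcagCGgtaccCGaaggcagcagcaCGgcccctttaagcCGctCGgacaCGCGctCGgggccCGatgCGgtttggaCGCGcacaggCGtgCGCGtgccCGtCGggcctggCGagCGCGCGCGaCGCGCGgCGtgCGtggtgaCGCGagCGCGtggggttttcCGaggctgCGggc
GNG3, chr11:62707426-62707675, plus strand: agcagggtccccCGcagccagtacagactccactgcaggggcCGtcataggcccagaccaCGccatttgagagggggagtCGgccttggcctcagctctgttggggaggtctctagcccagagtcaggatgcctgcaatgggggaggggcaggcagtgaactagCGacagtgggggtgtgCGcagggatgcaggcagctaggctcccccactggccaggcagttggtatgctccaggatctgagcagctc
The GNB1 window held 42 CG dinucleotides at 77.2% G and C, and the GNG3 window, which lies inside the annotated span of the gene, 6 at 64.4% G and C.

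**Figure D5:**
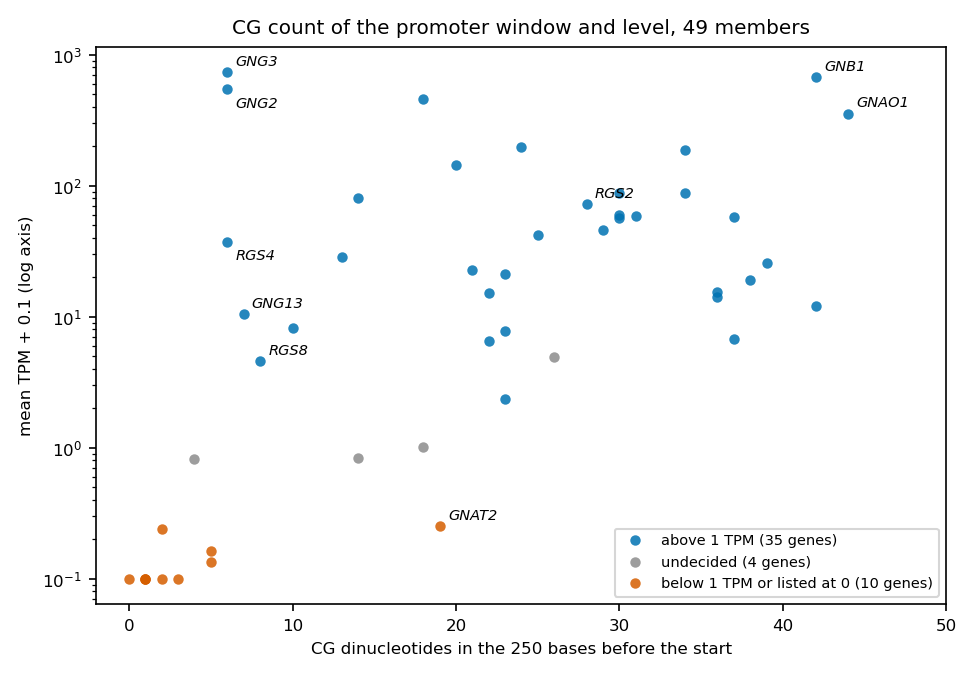
Mean TPM + 0.1 (log axis) against the number of CG dinucleotides in the promoter window for the 49 members with a window, coloured by their call against 1 TPM. Members below the bar or at 0 lie at 5 or fewer except GNAT2 at 19, and GNG3 and GNG2 lie at the top left with 6.

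Of 43 genes that work with these proteins 32 were above the bar, 7 were below, 3 were undecided and ARR3 was listed at 0, a share above the bar near the 71.2% of protein-coding genes. All 4 phospholipase C beta genes, the effectors of Gq, were above, led by PLCB1 (28.5 ± 6.55 TPM) and PLCB4 (23.7 ± 2.48). Of 10 adenylyl cyclases 8 were above, led by ADCY5 (60.9 ± 3.04 TPM) and ADCY2 (54.3 ± 9.22), and ADCY4 (0.21 ± 0.0656) and ADCY10 (0.33 ± 0.204) were below. Of 4 potassium channel genes opened by beta-gamma 3 were above, led by KCNJ9 at 26.9 ± 1.74 TPM and KCNJ6 at 4.1, 5.43 and 9.03 TPM.

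Of 9 chaperones and regulators of the GDP-bound state 6 were above, led by GPSM1 (117 ± 6.91 TPM), which holds Gi alpha in its GDP state, and RIC8A (83.0 ± 7.55), a chaperone of alpha subunits. PDC, the phosducin of photoreceptors, and PCP2 of Purkinje cells were below at 0.113 ± 0.103 and 0.183 ± 0.127 TPM. Of 11 receptor kinases and arrestins 7 were above, led by GRK2 (131 ± 8.53 TPM) and ARRB2 (62.0 ± 4.02), while GRK7 (0.04 ± 0.0265) and SAG (0.113 ± 0.0702), both of the retina, were below. GPR158, an orphan receptor that binds RGS7 in neurons, was above at 4.09 ± 0.235 TPM, and its relative GPR179 of retinal bipolar cells was below at 0.18 ± 0.052 TPM.

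Pseudogenes and divergent transcripts named for members may affect some member values, which was not tested. Of 9 processed pseudogenes named for members GNAQP1 had signal, at 0.517 ± 0.117 TPM, and the other 8 were listed at 0. Divergent transcripts beside GNAO1 and GNB1 were at 6.69 ± 1.49 TPM (GNAO1-DT) and 5.51 ± 0.741 TPM (GNB1-DT).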

How the data were processed

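Per the labels' protocols, polyadenylated RNA was made into strand-specific libraries and sequenced as paired reads of 151 bp. RSEM, with no version, and the build GRCh38.p14 are named in the submitters' processing notes. The authors deposited estimated counts and TPM per gene. Nothing on the aligner, annotation, strand setting or PCR copies was given in the sources used here. Estimated counts, as deposited, were partly fractional (13.9, 15.4 and 13.4% of values in replicates 1, 2 and 3), since RSEM divides reads shared between genes. TPM, as deposited, are shares of a fixed total.

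Levels were tested against 1 TPM with limma 3.58.1 (intercept only, eBayes with trend, 2-sided, pseudocount 0.1, Benjamini-Hochberg, adjusted p under 0.05). Fold changes on this scale are understated for low genes. As an alternative, counts rounded to whole numbers were tested against 1 CPM with the quasi-likelihood F test of edgeR 4.0.16. Both steps were tested on simulated data. Every member could be named; of each other list, the 2 highest genes (markers: the highest) and genes below the bar; other marker and neighbouring genes were named after their values were seen. Promoter windows and coordinates come from RefSeq tables on GRCh38.p14, which matched 57 of 57 members for position, and strands of overlapping genes from GENCODE. Members, lists, ratios and tests were chosen with earlier results of these data known. No per-sample column was left out.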

Additional observations from a re-analysis of the deposited data

How the results depend on the processing

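No paired analysis was possible because the series has a single group. The count of members above 1 TPM was 39 or 40 under all alternatives run, and that of partner genes 32 or 33. The count below was 7, and 8 with a pseudocount of 1, without trend or without replicate 3. It was 4 with genes of mean TPM of at least 0.1, and 0 with edgeR against 1 CPM after filterByExpr, under TMM or RLE scaling, because that filter left 42 members (0 at an unadjusted p under 0.05 as well); edgeR without the filter gave 9. RGS9BP, undecided, was on the other side of the bar in edgeR, at a log2 level of 0.11 under TMM, RLE and no filter. Members over 2-fold between libraries were 3 on TPM without mitochondrial genes, 1 with a mean of at least 5 TPM and 6 with at least 0.1 TPM. With a replicate left out they were 0 to 2 (0 without replicate 3, 1 without replicate 1, against 2).

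On CPM 1 of the 19 ratios reversed, GNG3 over GNG2, to a log2 ratio of -1.61. GNB5 over R7 (-0.25), all beta over all gamma (-0.080), R4 over R7 (0.11) and RGS4 over RGS2 (-0.15) were no longer 2 SD from 0, while GNAQ over GNA11 (1.06) and RGS7 over RGS6 (-1.013) became so. CPM leaves out the division by length that sets TPM. With each replicate left out, GNAO1 over GNAI1-3 ran from -0.25 to -0.14, GNAQ over GNA11 from 0.22 to 0.53, GNB5 over R7 from -0.64 to -0.40, GNG3 over GNG2 from 0.34 to 0.56, all beta over all gamma from -0.44 to -0.29, R4 over R7 from 0.40 to 0.62 and RGS7 over RGS6 from -0.31 to 0.087 (0.087 without replicate 3). The cause was not tested. Pseudocounts of 0.01 and 1 changed no ratio call. With 2 libraries a ratio rests on 2 values. Counting error limits the members with under 10 counts.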
